A study of Mus musculus with 6 samples.

Results

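The immunoglobulin gene segments are the constant (C), variable (V), joining (J) and diversity (D) genes of the heavy chain locus Igh and of the light chain loci Igk (kappa) and Igl (lambda). Members were all genes of the series' count table with the GENCODE M21 biotype IG_C_gene, IG_V_gene, IG_J_gene or IG_D_gene. There were 130 members among 17500 genes: 111 V segments (52 Ighv, 56 Igkv and 3 Iglv), 11 C genes, 8 J segments and 0 D segments. The study sequenced bulk RNA of sorted LT-HSCs, long-term blood-forming stem cells, the self-renewing cells at the top of blood formation, from wild-type male C57/Bl6 mice aged 22 to 24 months. Cells were gated as Lin-, Sca1+, cKit+, CD48- and CD150+, and the 10% with the most surface CD61 (CD61High, 3 libraries) were compared with the 10% with the least (CD61Low, 3 libraries), at 5000 cells per library. CD61 is integrin beta 3, the product of Itgb3. Both groups share the strain, sex, age and sort and carry no treatment. The titles name 1 mouse for each library, mice 1 to 3 each giving both gates, while the protocol speaks of pools, so that p-values measure the spread between these libraries.

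An antibody is built from paired heavy and light chains. In developing B cells, recombination joins 1 V, 1 D and 1 J segment of Igh, then 1 V and 1 J segment of Igk or Igl, so each B cell clone carries its own combination, and a V segment that takes most reads of a library can come from few clones. The constant gene sets the isotype: Ighm and Ighd (IgM and IgD) are read first, and class switching replaces them with Ighg3, Ighg1, Ighg2b, Ighg2c or Igha. Plasma cells make these transcripts in very large amounts, and stem cells carry the loci unrearranged. Transcripts of unrearranged constant genes also exist, so constant gene reads alone do not show a rearranged gene.

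The segments that led the V reads of a library, and Igkv6-15, which was called in a test below, are shown by the last 60 bases of their annotated coding sequence (GENCODE M21, GRCm38), the end that is joined to D or J. Capitals mark a match to TANNNCTGN, where N is any base, which covers the codon of the conserved cysteine that ends framework 3.
Ighv1-55: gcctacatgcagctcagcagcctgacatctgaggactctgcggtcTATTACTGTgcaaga
Ighv8-8: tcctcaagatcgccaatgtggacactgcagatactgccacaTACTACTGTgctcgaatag
Ighv1-80: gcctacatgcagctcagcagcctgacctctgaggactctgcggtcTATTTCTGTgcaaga
Igkv6-20: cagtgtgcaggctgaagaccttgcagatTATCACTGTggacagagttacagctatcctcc
Igkv12-89: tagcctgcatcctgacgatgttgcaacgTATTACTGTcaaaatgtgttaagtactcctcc
Igkv3-4: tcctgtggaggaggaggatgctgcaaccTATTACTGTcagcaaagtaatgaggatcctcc
Igkv4-55: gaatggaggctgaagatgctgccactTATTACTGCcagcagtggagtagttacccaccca
Igkv6-15: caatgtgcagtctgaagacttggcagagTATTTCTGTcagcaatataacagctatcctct
Iglv1: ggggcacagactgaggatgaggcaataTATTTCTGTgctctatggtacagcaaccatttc
The heavy chain stretches were Ighv1-55 at chr12:115208095-115208154 on the minus strand, Ighv8-8 at chr12:115294062-115294121 on the minus strand, Ighv1-80 at chr12:115912344-115912403 on the minus strand. For the kappa segments the stretches were Igkv6-20 at chr6:70335841-70335900 on the minus strand, Igkv12-89 at chr6:68834846-68834905 on the minus strand, Igkv3-4 at chr6:70672318-70672377 on the plus strand, Igkv4-55 at chr6:69607275-69607334 on the minus strand, Igkv6-15 at chr6:70406469-70406528 on the minus strand. The lambda stretch was Iglv1 at chr16:19085017-19085076 on the minus strand. Each stretch lies within 1 coding exon. The pattern, searched on the coding strand only, was present in the last 60 coding bases of 105 of 111 V members (94.6%), of 91.7% of 218 annotated functional V segments and of 50% of 158 V pseudogenes. It was widened after these ends were seen: a first pattern, TANTANTGN, matched 89 of the 111 members (80.2%). In a rearranged gene a V segment is joined to a J segment, directly or through D. The J members are therefore shown by the sequence annotated for 1 transcript each, which for Ighj2 is 48 of 100 merged exon bases. The counts are by gene and hold no junctions. Capitals mark TGGGG in Ighj and TTCGG in Igkj, the start of the tryptophan-glycine or phenylalanine-glycine motif of J segments.
Ighj1: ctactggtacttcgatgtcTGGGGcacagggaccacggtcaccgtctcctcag
Ighj2: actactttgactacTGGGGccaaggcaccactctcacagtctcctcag
Ighj3: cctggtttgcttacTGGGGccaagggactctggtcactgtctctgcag
Ighj4: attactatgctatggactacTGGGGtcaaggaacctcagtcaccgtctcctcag
Igkj1: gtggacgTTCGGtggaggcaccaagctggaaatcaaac
Igkj2: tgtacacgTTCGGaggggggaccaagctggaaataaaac
Igkj4: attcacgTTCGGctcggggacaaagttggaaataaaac
Igkj5: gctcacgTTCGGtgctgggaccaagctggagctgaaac
The Ighj sequences shown lie between chr12:113428514-113429833 on the minus strand and the Igkj sequences shown between chr6:70722562-70723923 on the plus strand. Across all 14 annotated immunoglobulin J segments the heavy pattern was found in 4 and the light pattern in 8, and across 70 T cell receptor J segments each was found in 11.

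The libraries held 21354130 to 26398090 counts on genes, and a count of 0 allows up to 3 counts, or 0.114 to 0.140 CPM (counts scaled to the total on genes). Intervals below are Wilson intervals at the 95% level, and neither they nor this floor cover more than counting error, as reads were not tagged by molecule. The 6 libraries fell apart by mouse. In pairs of values for a mouse, here and below, CD61High stands first and CD61Low after it. The summed level of 10 neutrophil markers was 68338 against 110830 CPM in mouse 2, 5040 against 20107 CPM in mouse 1 and 236 against 1615 CPM in mouse 3. Cd48, the gene of a surface protein the sort selected against, was at 55.4 against 99.4 CPM in mouse 2, 6.04 against 31.7 CPM in mouse 1 and 1.16 against 1.86 CPM in mouse 3. The 10 LT-HSC markers, all detected in every library, summed to 1276 to 5909 CPM, lowest in CD61Low of mouse 2. Results that rest on a mouse are therefore given by mouse.

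Immunoglobulin reads were abundant in mouse 2, intermediate in mouse 1 and scarce in mouse 3. The 130 members summed to 700 against 2185 CPM in mouse 1 (14949 and 55900 counts). In mouse 2 they summed to 5848 and 7851 CPM (145037 and 207242 counts), and in mouse 3 to 10.1 and 16.6 CPM (253 and 401 counts). The mean level of mouse 2 was 514 times that of mouse 3 and 4.75 times that of mouse 1, a wider span than that between the gates of any mouse. The CD61High library was the lower of the pair in each mouse, with log2 differences of -1.64, -0.42 and -0.71 in mice 1, 2 and 3, so that the share of counts was 3.12, 1.34 and 1.64 times as high in CD61Low. The groups overlapped. The mean log2 difference was -0.93, with an SD within groups of 4.67 in CD61High and 4.69 in CD61Low (n = 3 each), and the two-sided exact permutation test over libraries gave p = 0.7, where 3 against 3 cannot go below 0.1. With the mouse as a block, all 3 differences had 1 sign and the exact sign-flip test gave p = 0.25, the smallest it can give. In bulk RNA, fewer cells of a type and less RNA per cell cannot be told apart.

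**Figure D1:**
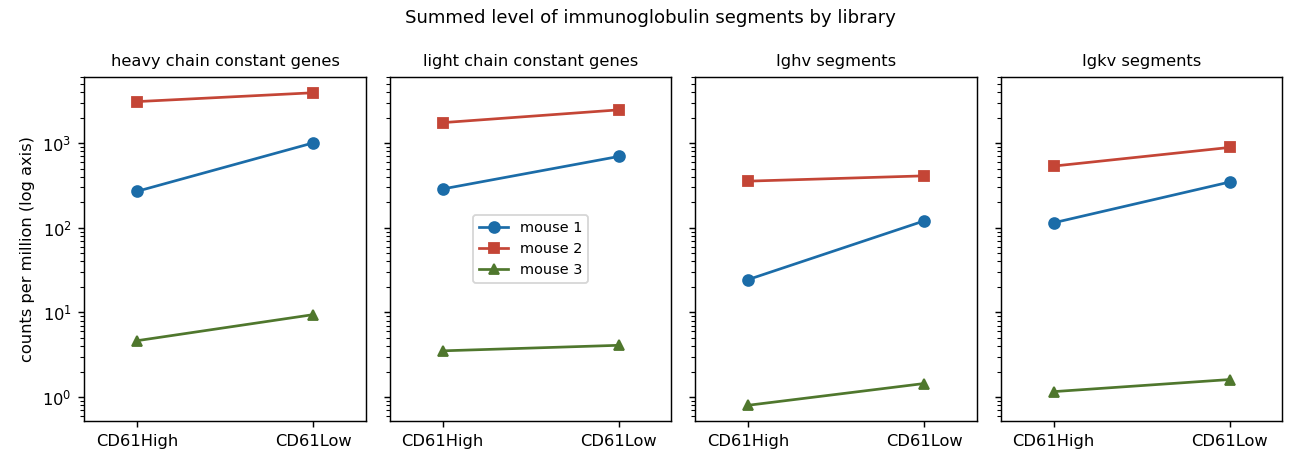
Summed CPM (log axis) of heavy chain constant genes, light chain constant genes, Ighv segments and Igkv segments in CD61High and CD61Low, with a line joining the libraries of each mouse. In every panel the lines of the 3 mice lie apart, mouse 2 highest and mouse 3 lowest, and each line is lower at CD61High.

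The level was lower in CD61High for each kind of segment with reads in all 3 mice, by different amounts. Heavy chain constant genes were at 270 against 1008 CPM in mouse 1, 3101 against 3945 CPM in mouse 2, and 4.64 against 9.42 CPM in mouse 3. Ighv segments were at 24.4 against 121 CPM in mouse 1, 356 against 411 CPM in mouse 2, and 0.799 against 1.45 CPM in mouse 3. Igkv segments were at 115 against 348 CPM in mouse 1, 536 against 891 CPM in mouse 2, and 1.16 against 1.61 CPM in mouse 3. Constant genes took 78.0% to 82.9% of member counts in the 6 libraries and V segments 16.9% to 21.8%. Per kilobase of merged exon, heavy chain constant genes exceeded Ighv segments 1.65 to 2.31 times in mice 1 and 2.

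IgM was the main heavy chain isotype in every library. Ighm, the mu chain of the first antibody a B cell makes (chr12:113418558-113422730, minus strand), had 5328 against 19413 counts in mouse 1, 60982 against 75109 in mouse 2, and 107 against 210 in mouse 3. Per kilobase it took 94.0% against 72.4% of heavy chain constant reads in mouse 1, 80.2% against 75.3% in mouse 2, and 94.1% against 92.3% in mouse 3. Ighd, the delta chain co-expressed with mu on mature naive B cells, had 77 against 754 counts in mouse 1, 1400 against 2253 in mouse 2, and 1 against 17 in mouse 3. Its share stayed between 0.873% and 7.41%, the high end in CD61Low of mouse 3, where it rests on 17 of 228 heavy chain reads.

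Class-switched reads came almost wholly from mice 1 and 2, and their isotypes differed between libraries. Ighg2c, the IgG2c heavy chain (chr12:113285325-113288932, minus strand), had 0 against 3763 counts in mouse 1, and 4702 against 4876 in mouse 2. Against the floor of 3 counts, the level in mouse 1 was at least 1047-fold lower in CD61High, while in mouse 2 it was 190 and 185 CPM. Ighg3, the IgG3 heavy chain, went the other way in mouse 1, at 261 and 73 counts. Ighg1 had 1012 counts in CD61Low of mouse 2 and at most 1 in the other libraries. Ighg2b had 190 against 2374 counts in mouse 2, but 27 against 8 in mouse 1. Igha, the IgA heavy chain, was the most counted switched gene of mouse 2, at 9596 against 18474, and had 73 against 1775 in mouse 1 and 0 against 1 in mouse 3. Ighg2b and Ighg2c are 87.7% identical over their coding sequence, and reads that align to both are not counted.

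Together, switched genes took 4.70% against 24.9% of heavy chain constant reads per kilobase in mouse 1. They took 17.9% against 22.5% in mouse 2, and 4.98% against 0.311% in mouse 3. The mouse 3 shares rest on 8 of 116 and 1 of 228 reads (intervals of the count share 3.54% to 13.0% and 0.0775% to 2.44%), so the direction differed between mice. The mean was 9.21% ± 7.57 (SD, n = 3) in CD61High and 15.9% ± 13.5 (n = 3) in CD61Low, a difference of -6.68 percentage points that the exact permutation test did not separate from the spread (p = 0.5, two-sided). Without mouse 1 the difference was 0.0605 percentage points.

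**Figure D2:**
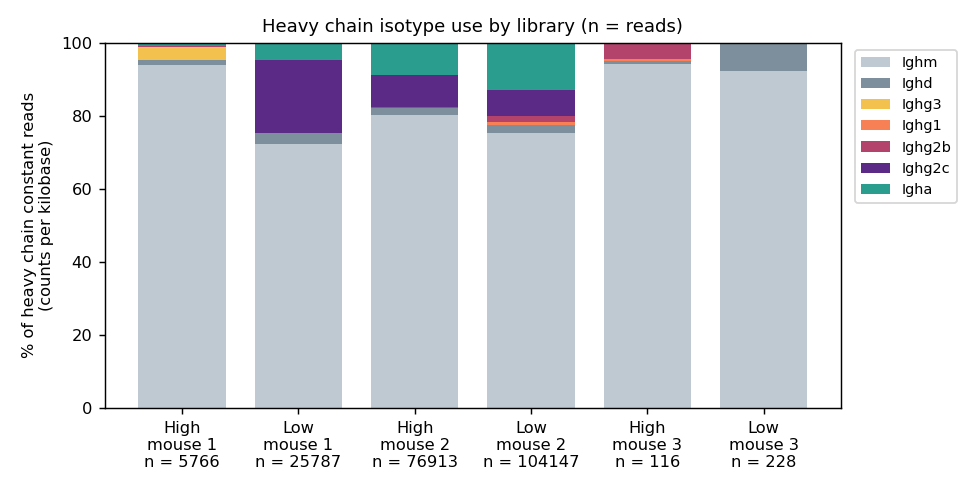
Share of each heavy chain constant gene in the heavy chain constant reads of each library, in percent of counts per kilobase; n is the number of reads. Ighm fills most of every bar, the Ighg2c block of CD61Low in mouse 1 (19.9%) is missing from CD61High of the same mouse, and Igha is largest in mouse 2.

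Light chain reads were mostly kappa. Igkc, the only kappa constant gene (chr6:70726435-70726966, plus strand), had 6049 against 17345 counts in mouse 1, 39381 against 60852 in mouse 2, and 83 against 90 in mouse 3. The kappa share per kilobase was 98.5% against 97.2% in mouse 1, 89.6% against 92.8% in mouse 2, and 93.7% against 90.3% in mouse 3. It was higher in CD61High in mice 1 and 3 and lower in mouse 2. The means were 93.9% ± 4.42 and 93.4% ± 3.48 (SD, n = 3 each), a difference of 0.51 percentage points (exact permutation p = 0.8, two-sided). Counted on V segments in place of constant genes, where CD61High of mouse 3 has too few reads, the difference was -3.96 percentage points.

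The mix of the lambda constant genes differed between the gates of mouse 2. Iglc1 had 3354 against 2192 counts in mouse 2, and 25 against 158 in mouse 1. Iglc2 had 440 against 1898 counts in mouse 2, 52 against 232 in mouse 1, and 1 against 3 in mouse 3. Iglc3 had 209 against 446 in mouse 2, 17 against 97 in mouse 1 and 1 against 2 in mouse 3. Iglc1 thus took 86.2% of lambda reads per kilobase in CD61High and 54.2% in the CD61Low library of mouse 2, and 31.0% against 37.0% in mouse 1. Iglc2 and Iglc3 are 96.2% identical, so the counting can split or drop their reads, whereas Iglc1 is 73.4% identical to Iglc2. Of the exons, 6.21% of Iglc2 overlap Iglj2, also an Igl segment, and 20.6% of Iglc3 overlap 2010309G21Rik. Reads on these stretches fit both genes in unstranded counts.

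Heavy chain V reads were led by 1 segment in mouse 1 and spread over more in mouse 2. In mouse 1, Ighv1-55 had 310 of 522 Ighv reads in CD61High and 1643 of 3089 in CD61Low, 57.3% and 49.5% per kilobase, and led both gates. The segments behind it differed between the gates. Ighv1-7 had 151 counts in CD61High and 0 in CD61Low, while Ighv1-26 and Ighv1-9 had 0 in CD61High and 526 and 473 in CD61Low. In mouse 2, Ighv8-8 led CD61High with 28.2% (2460 counts) and Ighv1-80 led CD61Low with 14.5% (1503 counts). Both were high in both gates there, since Ighv8-8 had 1150 counts in CD61Low and Ighv1-80 had 1428 in CD61High. Ighv3-6 had 1235 counts in CD61High and 130 in CD61Low, and Ighv1-53 165 and 880. The Ighv1 family took 94.9% and 94.1% of Ighv reads per kilobase in mouse 1, and 32.5% against 58.6% in mouse 2.

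The effective number of Ighv segments, the inverse Simpson number of the per-kilobase shares, was 2.39 against 3.24 in mouse 1 and 6.92 against 17.3 in mouse 2. A single segment made up over 50% of Ighv reads in CD61High of mouse 1, and 7 were needed to reach it in CD61Low of mouse 2. In mouse 3 CD61Low had 35 Ighv reads, led by Ighv6-6 with 6, and CD61High had 20, under the minimum of 30 for a share. The leading share was 42.7% ± 20.6 (SD, n = 2) in CD61High and 27.1% ± 19.4 (n = 3) in CD61Low, a difference of 15.6 percentage points (exact permutation p = 0.5, n = 5 libraries, where the fewest reads are in mouse 3).

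Kappa V reads were led by different segments in the gates of mouse 1. Igkv6-20 had 1704 counts in CD61High, 68.8% of its Igkv reads per kilobase, and 1 count in CD61Low. Igkv12-89 had 5923 counts in CD61Low, 68.0% of its Igkv reads, and 7 in CD61High. Only Igkv3-4 of the leading segments was high in both, at 678 and 883 counts. Igkv4-57 had 0 counts in CD61High and 1164 in CD61Low. In mouse 2, Igkv3-4 led CD61High with 41.1% (5348 counts, against 1933 in CD61Low) and Igkv4-55 led CD61Low with 15.7% (3815 counts, against 2407 in CD61High). Igkv14-126, at 2962 counts in CD61Low, had 10 in CD61High, and Igkv10-96 had 2142 in CD61High and 520 in CD61Low. Igkv6-20 is 98.6% identical to the nearest annotated segment, Igkv6-29, and its level can be understated, since reads that fit both are not counted. Of the 111 V members, 8 have an annotated neighbour at 98% identity or more and 62 at 95% or more.

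The effective number of Igkv segments was 1.81 against 2.05 in mouse 1 and 4.25 against 14.4 in mouse 2. It was lower in CD61High in both mice, as for Ighv. The leading share was 54.9% ± 19.5 (SD, n = 2) in CD61High and 37.0% ± 27.4 (n = 3) in CD61Low, a difference of 17.9 percentage points (exact permutation p = 0.4, n = 5). In mouse 3, Igkv16-104 led CD61Low with 11 of 39 reads, and CD61High had 29. The 5 tests of single values per library, for the summed level, the switched share, the kappa share and both leading shares, all had a Benjamini-Hochberg adjusted p of 0.8 by exact permutation.

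**Figure D3:**
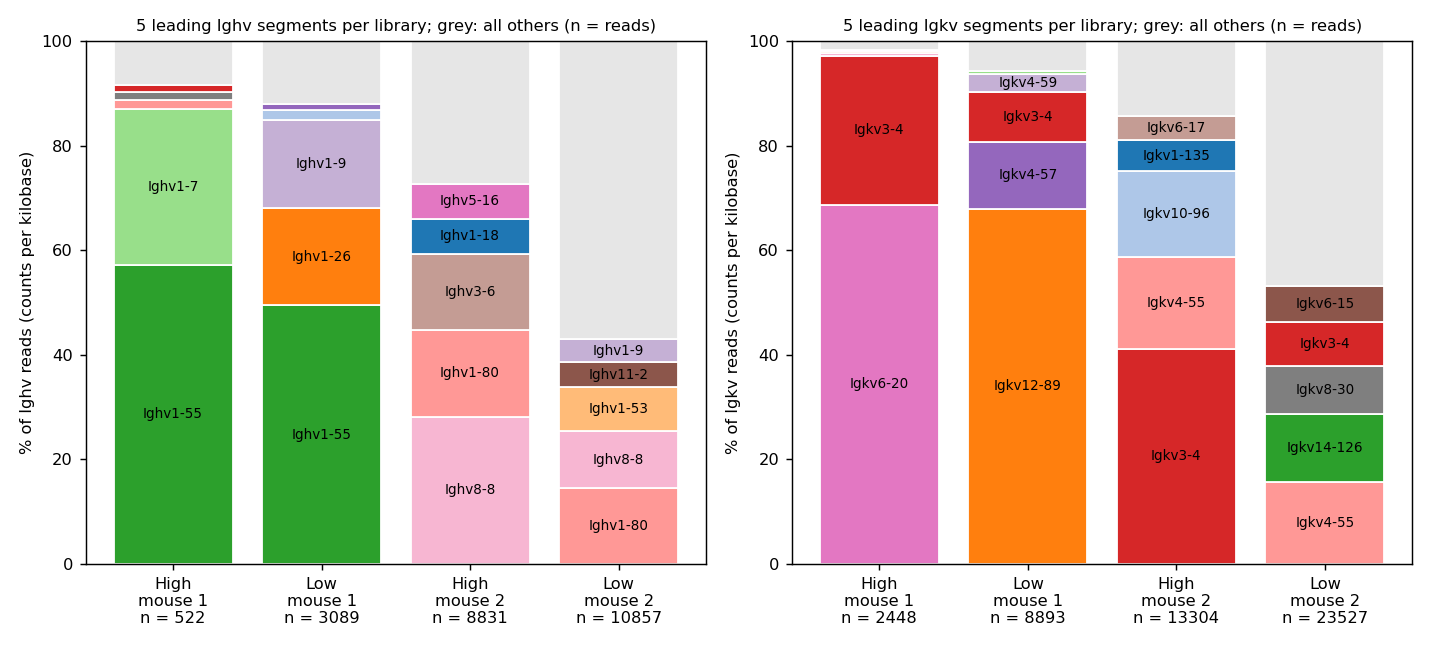
The 5 leading Ighv (left) and Igkv (right) segments in each library of mice 1 and 2, as percent of the locus's reads per kilobase, with all others in grey; n is the number of reads. Ighv1-55 leads both gates of mouse 1, whereas Igkv6-20 leads CD61High (68.8%) and Igkv12-89 CD61Low (68.0%) of that mouse.

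Iglv1 led the lambda V reads wherever they could be read. It took 83.7% and 76.4% of them per kilobase in mouse 1, and 95.4% against 61.9% in mouse 2. The lower share in CD61Low of mouse 2 came with Iglv2, at 931 counts against 43 in CD61High. Iglv3 had 61 against 112 counts in mouse 2 and 4 against 33 in mouse 1. Mouse 3 had 0 Iglv counts in both libraries.

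J segments, which are short and hold few reads, showed the same libraries apart. All 17 Ighj reads of CD61High in mouse 1 were on Ighj1, which held 35 of 51 (68.6%, interval 55.0% to 79.7%) in CD61Low. In mouse 2, Ighj2 had 107 of 190 Ighj reads in CD61High (56.3%, 49.2% to 63.2%) and 91 of 284 in CD61Low (32.0%, 26.9% to 37.7%), and Ighj1 had 62 and 87. These are count shares, and Ighj2 has 100 bases of merged exon against 53 for Ighj1. Per kilobase, Ighj1 took 44.4% against 35.6% and Ighj2 40.6% against 19.7%, so Ighj1 led both gates. Ighj3 had 3 and 41 counts and Ighj4 18 and 65 in the same pair. Igkj1 had 31 of 79 Igkj reads in CD61High of mouse 2 and 20 of 190 in CD61Low, Igkj2 23 and 63, Igkj4 19 and 61, and Igkj5 6 and 46. In CD61Low of mouse 1, Igkj5 had 25 and Igkj1 22 of 52 reads, with 5 on Igkj2 and 0 on Igkj4. CD61High of mouse 1 had 2 Igkj reads, both on Igkj4, and mouse 3 had 0 J reads in all.

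V use was closer within a mouse than between mice for Ighv, and for Igkv in mouse 2 but not in mouse 1. The shared use of a pair of libraries, the sum over segments of the lower share, was 54.7% and 46.0% for Ighv in the gates of mice 1 and 2, against 3.91% to 24.2% between mice. For Igkv it was 11.2% and 39.4% within mice 1 and 2, against 0.244% to 29.6% between mice. The pairs reuse libraries, so these values are a description. V segments with a count numbered 42 against 95 in mouse 1, 109 against 111 in mouse 2, and 17 against 18 in mouse 3. Of the 111 V members, 35 (31.5%) had at least 90% of their summed CPM in a single library, 31 of them in CD61Low of mouse 2. Of all 17500 genes, 40 did (0.229%), a count that includes these 35. The lowest summed count in the table is 31, which a segment can reach through 1 library alone, so the 2 shares are given as a description.

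**Figure D4:**
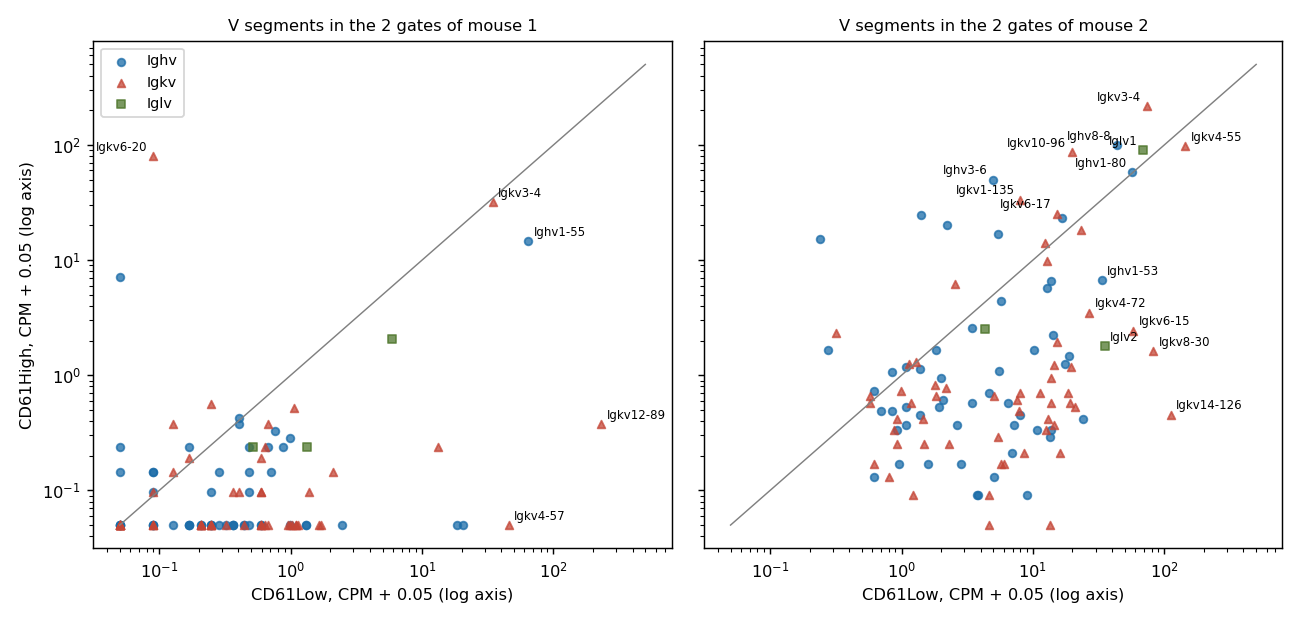
CPM of each V segment in CD61Low (x) and CD61High (y) of mouse 1 (left) and mouse 2 (right), both axes logarithmic after adding 0.05; the line marks equal levels. Most points lie below the line, and segments such as Igkv6-20 and Igkv12-89 in mouse 1 lie near opposite axes.

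No member was called by gene in the test without the block. Of the 130 members, 52 passed edgeR's filter on low counts (40 V, 10 C and 2 J), 0 of them had an adjusted p under 0.05 in edgeR's quasi-likelihood test, and 0 had an unadjusted p under 0.05. The background was 0% of 15610 genes called and 6.55% at an unadjusted p under 0.05. DESeq2 without the block called 0 members and 237 genes in all (1.62% of those it gave an adjusted p). In that fit 1 member had an unadjusted p under 0.05, against 9.24% of all genes. Not all 52 members were given a p there, and this 1 was 2.86% of those that were. Ighg2b, Iglc1 and Igkv6-15 were among the members without an adjusted p. In edgeR without the block, the members tested had a median log2 fold change of -1.27 against -0.05 over all genes. There 42 of 52 lay below 0 (80.8% against 54.6% of all genes). Without CD61Low of mouse 2 the median of the members was 0.64, and 34% lay below 0, against 48.0% of all genes. Leaving out any other single library gave 71.4% to 95.2% below 0. Segments read from the same cells are not independent, and a segment can pass the filter through the gate where it is high. These shares are therefore a description. With standard errors of 2.26 for Ighm (-0.62) and 2.27 for Igkc (-0.88), the spread between mice exceeded the differences between gates.

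In the edgeR fit blocked by mouse, 40 genes were called (0.256%), and 25 of these were lower in CD61High (0.160%), and 2 of the 40 were members. Of the 52 members, 22 (42.3%) had an unadjusted p under 0.05 in edgeR with the block, against 20.8% of all genes. Igkv6-15, a kappa V segment, fell by 5.02 on the log2 scale (SE 0.49, edgeR adjusted p = 0.0446). Its counts were 0 against 41 in mouse 1, 59 against 1533 in mouse 2 and 0 against 0 in mouse 3, so the call rests on mice 1 and 2. It was not called in DESeq2 with the block (-4.69, adjusted p = 0.401) or in the blocked edgeR fit without mouse 1 (adjusted p = 0.160). Iglc2 fell by 2.10 (SE 0.23, edgeR adjusted p = 0.0436), lower in CD61High in 3 of 3 mice. It was called in DESeq2 with the block as well (-2.13, adjusted p = 9.9e-09), but not in the blocked edgeR fit without mouse 1, 2 or 3 (adjusted p = 0.274, 0.0891 and 0.0519). The blocked values of the most abundant genes were -1.03 for Ighm (SE 0.24, edgeR adjusted p = 0.0933), -0.80 for Igkc (SE 0.23, 0.134) and -2.61 for Igha (SE 0.77, 0.149), none called in edgeR. DESeq2 with the block called Ighm (-1.06, adjusted p = 0.000715) and Igkc (-0.81, adjusted p = 0.0100) and not Igha (-2.71, adjusted p = 0.125). Without mouse 1, the blocked edgeR fit called 0 members and 0% of genes, and 38 of 88 members had an unadjusted p under 0.05 against 9.64% of genes. Without mouse 2, Igha, Ighd, Ighm and Ighv1-55 were called lower, where 4.77% of genes were called and 2.93% were called lower. Without mouse 3, Igkv14-126, Igkv4-59, Igkv4-57-1, Igkv8-30 and Igkv6-15 were called lower, where 0.0435% of genes were called and 0.0373% were called lower. With no filter on low counts the blocked fit called 13 of 130 members, all lower, against 0.566% of genes called and 0.406% called lower. A member can enter the table through 1 library alone, so this count is a description. DESeq2 with the block called 11 members, all lower, where 11.1% of all genes were called and 7.87% were called lower, and 16 of 52 members had an unadjusted p under 0.05 against 20.9% of genes.

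By sign, 16 of 130 members (12.3%) were lower in CD61High in all 3 mice, where the background was 17.9% of genes, and 92 members had 0 counts in both libraries of mouse 3. In mice 1 and 2, 78 members (60%) were lower in both, against 24.0% of genes. A segment can enter the table through CD61Low of mouse 2 alone, where 80 of the 111 V members were highest. Segments read from the same cells are also not independent, so these shares are a description. Among the 11 C genes, 6 were lower in all 3 mice: Ighm, Ighd, Igha, Igkc, Iglc2 and Iglc3. For 3 V segments every CD61High library lay below every CD61Low library, with 3.46% of genes as background, and for 0 members every CD61High library lay above, with 8.36% of genes as background. Igkv4-59 was the most counted of these, with 4, 7 and 0 counts in CD61High and 337, 332 and 7 in CD61Low of mice 1 to 3. Ighv8-6 was the 1 of 130 members higher in CD61High in all 3 mice, where the background was 25.9% of genes. Its counts were 4, 40 and 3 against 0, 6 and 0. These 2 segments were singled out after their values were seen.

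Other genes of the pathway were described from 4 lists. In the B cell receptor and B lineage list, the signaling partners and transcription factors of B cells, 0 of 25 genes were called in edgeR with or without the block and 22 of 25 had a log2 fold change below 0 (median -1.01, against -0.05 over all genes). Without mouse 2, the blocked edgeR fit called 5 of 24 lower, where 2.93% of genes were called lower. DESeq2 called 0 of the 25 without the block and 13, all lower, with it, where 7.87% of genes were called lower. Cd74, the invariant chain of antigen presentation, had 5930 against 28013 counts in mouse 1, 29800 against 52117 in mouse 2 and 4723 against 13992 in mouse 3, and a blocked value of -1.52 (SE 0.22, edgeR adjusted p = 0.0512). Blnk, an adaptor downstream of the B cell receptor, Spib, a B cell transcription factor, and Cd79a, a signaling chain of the receptor, had blocked values of -1.71, -1.73 and -1.62.

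The background for the lists that follow is the share over all genes. In edgeR it was 0% called without the block and 0.256% with it, and 6.55% at an unadjusted p under 0.05 without it. DESeq2 called 1.62% without the block and 11.1% with it, 7.87% lower. The blocked edgeR fit without mouse 2 called 4.77%, 2.93% lower. In the recombination and surrogate light chain list, 0 of 15 tested genes were called in edgeR either way, 3 had an unadjusted p under 0.05 without the block, and the median was -0.30. DESeq2 called 0 without the block and 4 with it, 2 in each direction. Vpreb3, a B cell precursor gene, had a blocked value of -1.67 (SE 0.31, edgeR adjusted p = 0.0661), whereas the repair genes Prkdc, Xrcc5 and Xrcc6, which are used in all cells, had 0.73, 0.74 and 0.46 without the block. Rag1, a recombinase gene, had 1 against 40 counts in mouse 1, 109 against 90 in mouse 2 and 0 against 0 in mouse 3. In the plasma cell and antibody secretion list, 0 of 19 were called in edgeR either way, 0 had an unadjusted p under 0.05 without the block, and DESeq2 called 0 without and 3 lower with it (median -0.38). Jchain, which links IgM and IgA into polymers, had 776 against 4134 counts in mouse 1, 11741 against 16194 in mouse 2 and 30 against 37 in mouse 3. In the class switching list the median was 0.43, with 0 of 12 called in edgeR either way, 5 at an unadjusted p under 0.05 without the block, and in DESeq2 1 higher without the block and 5 higher and 2 lower with it. Without mouse 2, the blocked edgeR fit called 3 of these 12 higher and 1 lower, and 0 in the recombination and secretion lists. The repair genes Ung, Exo1 and Msh6 had log2 fold changes of 1.52, 1.34 and 0.72 without the block.

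In each mouse the summed B cell, plasma cell, neutrophil, monocyte and lymphoid (T and NK) markers were lower in CD61High, as the members were, while erythroid markers were so in mice 1 and 2. Single genes of a sum could go the other way. In mouse 3, Nkg7 (1252 against 177 counts), Lck and Trac were higher in CD61High. Klrb1c (944 against 2445 counts), Cd3e, Cd3d and Cd3g were lower there. By CPM, Nkg7 and Lck were also higher in CD61High of mouse 1, and the other T and NK genes lower. Of the plasma cell genes in mouse 3, Sdc1, Derl3 and Tnfrsf17 were higher, and Xbp1, Jchain, Prdm1 and Irf4 lower. All 8 B cell markers had a count in 4 libraries, 7 of 8 in CD61High of mouse 1 and 6 of 8 in CD61High of mouse 3, with Pax5 at 0 in both and Blk at 0 in the latter. They summed to 49.9 to 296 CPM in CD61High and 60.5 to 414 CPM in CD61Low. Cd79b stood at 48.8 to 129 CPM in all libraries, while Cd79a and Ms4a1 had the same order of libraries as the members. Cd79a was at 11.1 against 44.0 CPM in mouse 1, 73.3 against 117 CPM in mouse 2 and 0.160 against 1.16 CPM in mouse 3. The 8 plasma cell markers summed to 221 to 745 CPM in CD61High and 298 to 902 CPM in CD61Low, with Xbp1 at 171 to 286 CPM, while Mzb1 was at 0 in CD61High of mouse 1 and in both libraries of mouse 3. Neutrophil markers, at 236 to 68338 CPM in CD61High and 1615 to 110830 CPM in CD61Low, spanned the widest range. The 8 monocyte and macrophage markers summed to 403 to 8654 CPM in CD61High and 550 to 13745 CPM in CD61Low, and the 8 T and NK cell markers to 103 to 257 CPM and 121 to 308 CPM. The 8 erythroid markers were at 4136 against 5165 CPM in mouse 1, 16704 against 29018 CPM in mouse 2 and 3220 against 3058 CPM in mouse 3. The 10 LT-HSC markers were at 4152.5 against 5626.2 CPM in mouse 1, 1999.2 against 1275.5 CPM in mouse 2 and 4326.1 against 5908.9 CPM in mouse 3. Members stood at 0.0708 to 0.139 counts per neutrophil marker count in mice 1 and 2 and at 0.0103 to 0.0428 in mouse 3. The part of these cells in the immunoglobulin differences was not tested.

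**Figure D5:**
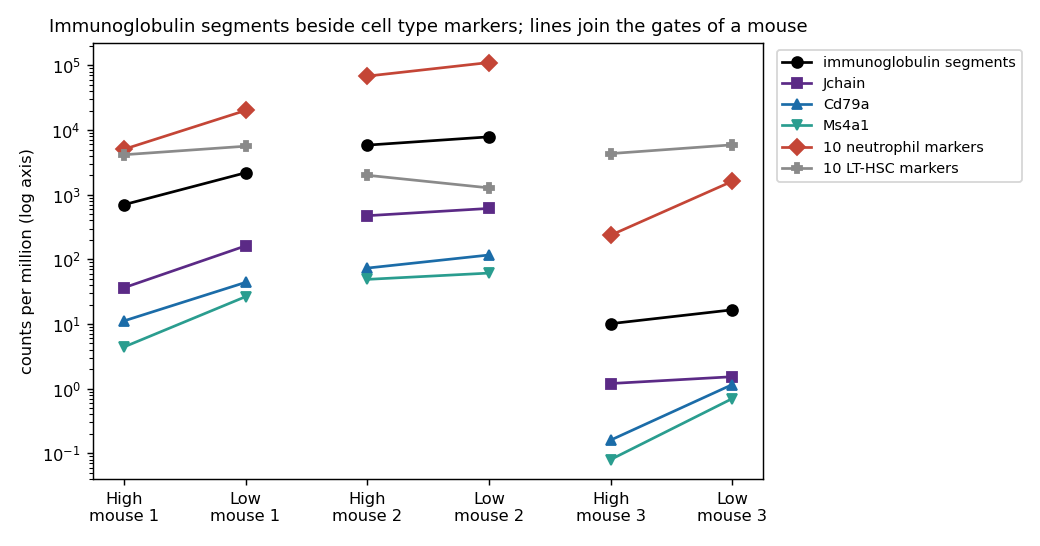
CPM (log axis) of all immunoglobulin segments together, of Jchain, Cd79a and Ms4a1, and of the summed neutrophil and LT-HSC markers, in each library, with lines joining the gates of a mouse. All but the LT-HSC markers are highest in mouse 2, lowest in mouse 3 and lower in CD61High within each mouse.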

How the data were processed

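The authors deposited STAR gene counts per library and a count table of the series, raw and without scaling. The submitters' processing notes name the tools STAR 2.7, MultiQC and edgeR; the genome build is not given in the sources used here. All 55450 identifiers are those of GENCODE M21 (GRCm38), which supplied symbols, biotypes, coordinates and sequences. Per the labels' protocols, SMART-Seq v4 and Nextera XT were used, which do not mark strand, so unstranded counts were taken. Lines naming no gene stayed out of library sizes: 4.36% to 10.9% unmapped, 10.0% to 15.6% multimapping, 2.88% to 4.21% outside any gene, and 3.55% to 4.37% ambiguous. The lowest summed count in the series table is 31.

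The whole table was fitted with edgeR 4.0.16 under R 4.3.3 (robust quasi-likelihood test, TMM, filterByExpr, Benjamini-Hochberg over 15610 genes, called at an adjusted p under 0.05), tested on simulated data; DESeq2 1.42.0 was an alternative. Shares need 30 counts. They use counts per kilobase of merged exon, except that J shares given with an interval are plain count shares. Permutation tests were exact and two-sided. Alternatives were the mouse block, other scaling, no filter, plain counts, a minimum of 100 counts and leaving out libraries or mice. Per the titles, same-numbered libraries share a mouse; the correlation of their deviations from group means was 0.236, 0.806 and 0.761 in mice 1 to 3, against -0.823 to 0.374 between mice and gates.

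The members, lists and tests were chosen with earlier results of these data known. Named are all C and J members, called members and leading segments of each library. Also named are the 5 V segments per locus with the highest mean CPM per kilobase. In the B lineage list the 4 genes named have the smallest edgeR adjusted p with the block. In the other lists genes were selected, and some with a smaller adjusted p, such as Eaf2 and Hmces, were left out. Further segments and genes that differ between gates were chosen after their values were seen. The V end pattern was also widened after its matches were seen.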

Additional observations from a re-analysis of the deposited data

Results flagged for a closer look

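Immunoglobulin reads also lay on genes that the comparisons did not use. Ighv1-41, annotated as a V pseudogene (chr12:114932371-114932782), had 416 counts in all: CD61High had 2, 129 and 0 in mice 1 to 3, and CD61Low had 31, 252 and 2. Ighv1-73, also a V pseudogene (chr12:115790593-115791027), had 53 counts, 42 of them in mouse 2. The 134 segments of the same biotypes outside the series table held 971 counts, with 30, 281 and 12 in CD61High of mice 1 to 3 and 121, 517 and 10 in CD61Low. Each was flagged as immunoglobulin reads outside the members, with no limit on counts applied.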

How the results depend on the processing

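The count of members called was 0 in the fit without the block. It was 2 with the replicate block, 4 with relative log expression factors and the block, 13 with no filter and the block, and 11 with DESeq2 and the block. Over the whole table, 0 genes were called without the block, 40 with it, 88 with relative log expression factors and the block, 99 with no filter and the block, 237 with DESeq2 and 1566 with DESeq2 and the block. Leaving out a library or a mouse gave 0 to 5 members and 0 to 742 genes; the 742 came without mouse 2 and the 5 members, among 7 genes called in all, without mouse 3, both with the block. The cause of these differences was not tested.

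Leaving out a library or a mouse moved the log2 difference in the summed level from -3.58 to 1.62 (0.86 without CD61Low of mouse 2, 1.62 without CD61High of mouse 3). It moved the switched share from -14.5 to 0.0605, the kappa share from -1.75 to 2.66, the leading Ighv share from 1.09 to 30.2 and the leading Igkv share from 4.10 to 33.4. The kappa difference was -0.94 with a minimum of 100 counts and -3.96 on V segments. None of the 5 single values could be called with or without the block. The smallest possible exact p was 0.1 without it. With the block it was 0.25, or 0.5 for both leading shares, which only mice 1 and 2 give as pairs. The exact p with the block was 0.25 to 0.75, at its smallest possible value for the summed level and both leading shares.

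For 14 genes followed singly, 180 of 221 alternative values kept direction and call, 17 passed the threshold and 24 changed sign. Ighg2b, Iglc1 and Igkv6-15 had no adjusted p in DESeq2 without the block and were counted there as not called. Outside the leave-outs, Ighg2b was 1.42 with DESeq2 and the block, and Iglc1 was -0.69 with the block, -0.71 with relative log expression factors and the block, -0.68 with no filter and the block and -0.84 with DESeq2 and the block. With the block, Ighg3 was -0.285 without mouse 1, Iglc1 -1.92 without mouse 2 and -0.70 without mouse 3, and Igkv3-4 -0.18 without mouse 2. Over the leave-outs, log2 values ran from -3.67 to 1.43 for Ighm, -7.71 to 2.12 for Igha, -4.81 to 0.61 for Ighd, -5.79 to 4.42 for Ighg2b, -0.83 to 2.01 for Ighg3 (1.92 without CD61High of mouse 3), -3.21 to 1.06 for Igkc, -6.02 to 4.05 for Iglc1, -4.92 to 0.74 for Iglc2, -4.48 to 0.86 for Iglc3, -12.33 to 0.19 for Igkv6-15, -1.55 to 2.44 for Igkv3-4 and -2.35 to 0.83 for Ighj1. Mouse 3, with 253 and 401 member counts, limits what can be said of V use and isotypes there.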

Other observations

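T cell receptor segments, the counterpart of the immunoglobulin segments in T cells, were scarce. The 8 of them in the series table summed to 8.24, 14.8 and 3.96 CPM in CD61High of mice 1 to 3 and 11.6, 19.5 and 3.68 CPM in CD61Low. D segments held 17 counts in all, over 2 of 19 annotated genes, none of them in the series table.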
